A study of Mus musculus with 8 samples.

Results

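Klk1, Klk1b21, Klk1b22, Klk1b24, Klk1b26 and Klk1b27 are 6 of the 54532 genes measured in spermatocytes from MFN2 cKO mice and their MFN2 WT controls. They were taken from the table by gene name and were chosen by their FPKM in MFN2 cKO against MFN2 WT, as tissue kallikreins of the Klk1 group of which 3 were higher in MFN2 cKO in every pair of libraries. The difference between genotypes is therefore given as a description with no test. Klk1b21, Klk1b24 and Klk1b27 were those 3 genes. Klk1b26 followed another pattern, highest in L/Z libraries at PD 52 and at 0 reads in both MFN2 cKO libraries at PD 24.

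Tissue kallikreins are secreted serine proteases. Klk1 cuts kininogens and releases kinins, short peptides that act on the bradykinin receptors and are destroyed by peptidases such as Ace. The mouse genome carries a row of Klk1b genes that arose as copies of Klk1, and their products cut other substrates, among them precursors of growth factors. In the mouse testis, Klk1b21, Klk1b24 and Klk1b27 are known from Leydig cells, the cells between the tubules that make testosterone. The products of Klk1b22, Klk1b26 and Klk1b9 are known as epidermal growth factor binding proteins, and those of Klk1b3 and Klk1b4 as subunits of the nerve growth factor complex.

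RNA was measured in 8 libraries, 1 for each of 8 groups, all from C57BL/6J mice. MFN2 WT mice carried Mfn2 loxp/loxp with no Cre according to the labels, while the study's methods also allow a single floxed allele in its controls. MFN2 cKO mice carried Mfn2 loxp/loxp and Stra8-Cre, which acts in male germ cells only, so that Leydig and other somatic cells are not its target. From each genotype there were pachytene (P) and leptotene and zygotene (L/Z) spermatocytes at postnatal day (PD) 24 and PD 52, separated by sedimentation through a BSA gradient. The later age is that of the labels, and parts of the study's text give a slightly later day for it. Whether cells of several mice were pooled is not given in the sources used here. At PD 24, Mfn2 itself was in MFN2 cKO at 51.3% of the MFN2 WT level in P cells and 41.8% in L/Z cells. At PD 52 these shares were 80.5% and 49.1%. They count reads over the whole gene, while the deletion removes 1 exon, so they do not measure how complete the deletion was. The study's qPCR of that exon found very little RNA in MFN2 cKO spermatocytes. Its western blot found low MFN2 protein there. The libraries held between 14340665 and 20379950 reads on genes. Levels are in FPKM, fragments per kilobase of gene as scaled by the authors. A further median-of-ratios scaling gave the factor 1.02 for every library, so the values already carried a scaling of that kind. The whole reads behind each value were recovered from it. Intervals are 95% exact binomial intervals computed from the read numbers of both libraries, and they cover counting error only. Where a library had 0 reads, the ratio was computed with 3 reads in its place and is given as at least that value, followed by the lower limit of the exact interval, which is smaller because it also covers the counting error of the other library.

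The spermatocyte labels were compared with marker genes. All 10 spermatocyte genes on the marker list had reads in every library. By the test described below, 7 of them were higher in P than in L/Z, and 1, Dmc1, was lower. Over all genes, 12.4% were higher in P and 16.0% lower. Markers of other cells were present too. None of the 12 Leydig cell genes was at 0 in any library, and their summed FPKM ranged from 39.2 to 289 in MFN2 WT and from 117 to 696 in MFN2 cKO. The summed FPKM of 8 spermatid genes, such as the protamines that pack sperm DNA, ranged from 1072 to 9531 in MFN2 WT and from 74.4 to 18132 in MFN2 cKO. It was higher in L/Z than in P at each age and genotype. By the same test, 7 of these 8 genes were lower in P, while all 10 Sertoli cell genes were higher in P. In bulk RNA of this kind, fewer cells of a type and less RNA per cell cannot be told apart.

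All 6 genes lie on the forward strand of chromosome 7, between 44012168 and 44229618 of GRCm38, and each has 5 exons in its main transcript. From the low to the high end stand Klk1b26 (ENSMUSG00000053719, 44012168 to 44016968), Klk1b27 (ENSMUSG00000063177, 44052290 to 44056712) and Klk1b21 (ENSMUSG00000066516, 44102328 to 44106583). Then come Klk1b22 (ENSMUSG00000060177, 44112673 to 44116922), Klk1b24 (ENSMUSG00000063713, 44188236 to 44192455) and Klk1 (ENSMUSG00000063903, 44225360 to 44229618). Together with 16 other Klk1 group genes of the table they fill 287 kb, with all 22 genes on the same strand.

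Klk1b21, Klk1b24 and Klk1b27 varied together in the libraries. The sequences upstream of the RefSeq starts are shown so that theirs can be read beside those of the other members. Each is the 150 bases before the RefSeq transcription start on GRCm38.p6, forward strand, read 5′ to 3′, and TTTAAA is in capitals. The windows are chr7:44102142-44102291 for Klk1b21, chr7:44188086-44188235 for Klk1b24, chr7:44052140-44052289 for Klk1b27, chr7:44112523-44112672 for Klk1b22, chr7:44225210-44225359 for Klk1 and chr7:44012528-44012677 for Klk1b26. The RefSeq starts of Klk1b21 (44102292) and Klk1b26 (44012678) differ from the gene starts in the table (44102328 and 44012168). The Klk1b26 window thus lies inside the gene as counted, downstream of its start in the table. Klk1b8 (chr7:43950516-43950665) and Klk1b9 (chr7:43975911-43976060) are added because the levels of Klk1b8 ran with those of Klk1b26 and the upstream bases of Klk1b9 were the closest to those of Klk1b22.
Klk1b21: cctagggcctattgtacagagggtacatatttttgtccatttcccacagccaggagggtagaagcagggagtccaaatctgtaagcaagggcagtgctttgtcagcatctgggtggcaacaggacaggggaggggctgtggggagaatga
Klk1b24: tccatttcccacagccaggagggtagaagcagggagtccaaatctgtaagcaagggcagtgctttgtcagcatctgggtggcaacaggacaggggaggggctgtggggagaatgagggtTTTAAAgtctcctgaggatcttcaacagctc
Klk1b27: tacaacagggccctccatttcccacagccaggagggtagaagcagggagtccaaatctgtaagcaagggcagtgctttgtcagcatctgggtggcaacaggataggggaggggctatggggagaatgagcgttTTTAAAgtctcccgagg
Klk1b22: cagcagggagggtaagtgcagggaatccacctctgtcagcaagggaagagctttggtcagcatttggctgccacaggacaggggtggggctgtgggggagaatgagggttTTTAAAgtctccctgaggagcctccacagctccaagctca
Klk1: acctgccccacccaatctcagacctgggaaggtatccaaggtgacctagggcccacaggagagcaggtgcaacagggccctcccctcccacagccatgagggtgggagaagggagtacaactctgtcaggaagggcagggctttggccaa
Klk1b26: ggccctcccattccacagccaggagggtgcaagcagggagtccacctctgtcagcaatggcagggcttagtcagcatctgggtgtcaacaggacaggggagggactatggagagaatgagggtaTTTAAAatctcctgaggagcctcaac
Klk1b8: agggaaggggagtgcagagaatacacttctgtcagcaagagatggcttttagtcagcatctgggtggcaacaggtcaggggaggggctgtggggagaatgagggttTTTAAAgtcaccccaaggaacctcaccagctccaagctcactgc
Klk1b9: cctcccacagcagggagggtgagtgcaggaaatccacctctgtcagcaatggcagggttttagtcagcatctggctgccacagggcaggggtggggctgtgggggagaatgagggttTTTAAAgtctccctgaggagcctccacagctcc

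Over 250 upstream bases, Klk1b21 and Klk1b24 were 97.7% identical in 215 aligned columns. Klk1b27 was 93.0% identical to Klk1b21 and 90.0% to Klk1b24. Klk1b22 was closest to Klk1b9 (87.2%), Klk1b26 to Klk1b11 (91.1%) and Klk1 to Klk1b5 (84.8% over 158 columns). Among the 6 upstream regions, those of Klk1b21, Klk1b24 and Klk1b27 thus resembled each other most. Likeness in sequence and in level did not go together for all members: Klk1b26 was 84.7% identical to Klk1b27, with which its level had a correlation near 0, and Klk1b22, whose level correlated with that of Klk1b27 at 0.903, was 78.7% identical to it. The letters TTTAAA, read on both strands, were found in the 250 bases of 4 members and of 12 of the 14 coding genes of the group, and in 12.1% of 32851 RefSeq promoters. They were not in the 250 bases of Klk1 and Klk1b21, and in Klk1b21 they stood in the 50 bases after the RefSeq start. In the other members their first base lay 40 bases before the start in Klk1b22, 31 in Klk1b24, 26 in Klk1b26 and 17 in Klk1b27. AAGGTCA, the core of the sites known for the steroidogenic regulator Nr5a1, was found 206 to 200 bases before the start of Klk1 and 247 to 241 before that of Klk1b21, upstream of the printed bases (4.08% of all promoters hold it in their 250 bases). AGAACA, the half-site of the androgen receptor, was found 237 to 232 bases before the start of Klk1b24, also upstream of the printed bases (16.1% of all promoters). These matches describe letters only.

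Among the transcripts of the members, those of Klk1b21, Klk1b24 and Klk1b27 again resembled each other most. Klk1b21 was 92.8% identical to Klk1b24 and 92.6% to Klk1b27, and Klk1b24 was 93.3% identical to Klk1b27. Over the 91 pairs of 14 coding genes of the group, identity ran from 80.4% to 94.1%. The highest value was that of Klk1 with Klk1b5. Klk1b26 was closest to Klk1b16 (91.9%) and Klk1b8 (91.6%), and Klk1b22 to Klk1b21 (88.2%), which are other genes than the nearest by upstream sequence. Such similarity bears on the counts. In 50-base windows, 33.9% of Klk1b24, 29.1% of Klk1b21, 28.4% of Klk1, 15.0% of Klk1b26, 14.3% of Klk1b27 and 13.3% of Klk1b22 also occurred in another gene's transcript. In 150-base windows the share was 0 for all 6 genes. Values of single members are uncertain as far as the authors' counting divided or dropped shared reads.

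**Figure D1:**
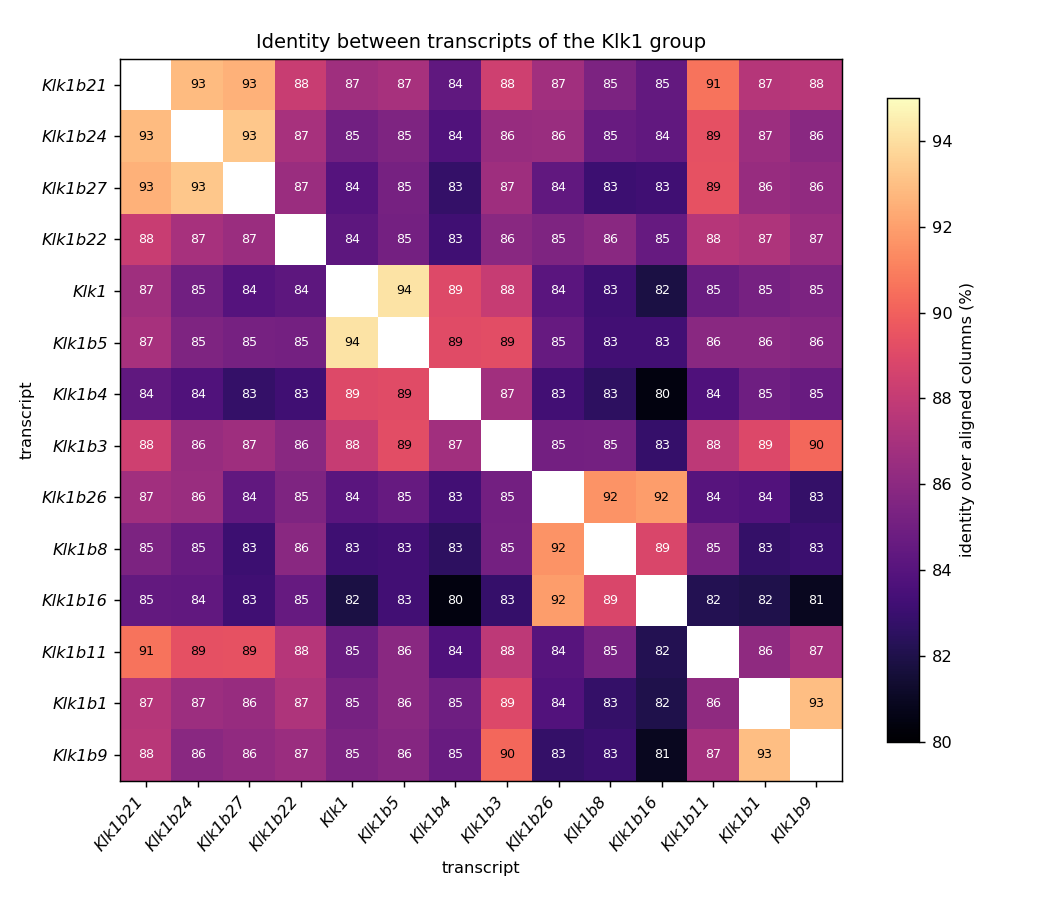
Identity between the main transcripts of 14 coding genes of the Klk1 group, in percent of aligned columns, with a transcript on each axis and the colour running from 80% to 95%. Klk1b21, Klk1b24 and Klk1b27 sit at 92.6% to 93.3% with each other, and Klk1 and Klk1b5 reach 94.1%.

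Klk1b21 had the most reads of the 6 genes, 1245 over the 8 libraries. In P spermatocytes at PD 24 it was at 0.0569 FPKM (1 read) in MFN2 WT and at 3.95 (64 reads) in MFN2 cKO. In L/Z spermatocytes at PD 24 it was at 0.304 FPKM (5 reads) and 8.80 (136 reads). At PD 52 it stood at 14.2 (199 reads) and 58.3 (737 reads) in P, and at 1.15 (15 reads) and 6.91 (88 reads) in L/Z spermatocytes. The MFN2 cKO library was thus the higher of each pair, although P MFN2 WT at PD 52 was above 3 of the 4 MFN2 cKO libraries. The ratio of MFN2 cKO to MFN2 WT was 4.09 (3.50 to 4.81) in P and 6.01 (3.45 to 11.2) in L/Z spermatocytes at PD 52. At PD 24 it was 29.0 (12.1 to 90.7) in L/Z spermatocytes. In P spermatocytes at PD 24 it was 69.4, with an interval of 12.0 to 2784 because MFN2 WT had a single read.

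Klk1b24 (1111 reads) had almost the same profile. Its FPKM at PD 24 was 0.0565 (1 read) in MFN2 WT and 4.78 (78 reads) in MFN2 cKO in P spermatocytes, and 0.603 (10 reads) and 7.19 (112 reads) in L/Z spermatocytes. At PD 52 it was 13.7 (193 reads) and 50.3 (641 reads) in P, and 0.533 (7 reads) and 5.38 (69 reads) in L/Z spermatocytes. As with Klk1b21, the highest library was P MFN2 cKO at PD 52 and the lowest P MFN2 WT at PD 24. The ratio of MFN2 cKO to MFN2 WT was 3.67 (3.12 to 4.33) in P and 10.1 (4.65 to 26.0) in L/Z spermatocytes at PD 52. It was 11.9 (6.25 to 25.6) in L/Z and 84.6 (14.7 to 3384) in P spermatocytes at PD 24.

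Klk1b27 (623 reads) ran at a lower level. At PD 24 it had 0 reads in P MFN2 WT and 2.30 FPKM (38 reads) in P MFN2 cKO, and 0.0595 FPKM (1 read) and 2.41 (38 reads) in L/Z spermatocytes. At PD 52 it stood at 7.50 (107 reads) and 30.1 (389 reads) in P, and at 0.301 (4 reads) and 3.54 (46 reads) in L/Z spermatocytes. MFN2 cKO was at least 13.7-fold higher (exact lower limit 10.6) in P spermatocytes at PD 24, and the ratio in L/Z spermatocytes was 40.5 (6.84 to 1640.2). The ratio at PD 52 was 4.02 (3.24 to 5.03) in P and 11.8 (4.30 to 45.0) in L/Z spermatocytes.

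Klk1b22 was measured at PD 52 only. All 4 libraries at PD 24 had 0 reads, and so had L/Z MFN2 WT at PD 52. The other libraries at PD 52 were P MFN2 WT at 5.03 FPKM (69 reads), P MFN2 cKO at 9.43 (117 reads) and L/Z MFN2 cKO at 1.04 (13 reads). The ratio of MFN2 cKO to MFN2 WT was 1.87 (1.38 to 2.56) in P spermatocytes, and L/Z MFN2 cKO was at least 4.44-fold higher (exact lower limit 3.12) than its MFN2 WT library. L/Z MFN2 cKO at PD 24 had 136 reads of Klk1b21 beside 0 of Klk1b22, and the interval of the ratio of Klk1b22 to Klk1b21 there reached up to 0.0280. At PD 52 that ratio was 0.353 (0.265 to 0.467) in P MFN2 WT, 0.162 (0.132 to 0.197) in P MFN2 cKO and 0.150 (0.0771 to 0.271) in L/Z MFN2 cKO.

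Klk1, the kinin-releasing gene of the group, was low in all libraries and at 0 in none. At PD 24 it was at 1.01 FPKM (22 reads) in MFN2 WT and 0.699 (14 reads) in MFN2 cKO P spermatocytes, and at 0.344 (7 reads) and 1.15 (22 reads) in L/Z spermatocytes. At PD 52 it was at 1.62 (28 reads) and 6.46 (101 reads) in P, and at 0.806 (13 reads) and 2.29 (36 reads) in L/Z spermatocytes. P MFN2 cKO at PD 52 was the highest, and the other libraries lay between 0.344 and 2.29 FPKM. The ratio of MFN2 cKO to MFN2 WT was 3.99 (2.60 to 6.30) in P and 2.84 (1.47 to 5.83) in L/Z cells of PD 52. In L/Z spermatocytes at PD 24 it was 3.35 (1.38 to 9.28). In P spermatocytes at PD 24 it was 0.690 (0.327 to 1.41), an interval that includes no difference.

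Klk1b26 was the exception among the members. Both MFN2 cKO libraries at PD 24 had 0 reads, while the MFN2 WT libraries had 0.358 FPKM (10 reads) in P and 0.458 (12 reads) in L/Z spermatocytes. At PD 52 it was at 1.03 (23 reads) in MFN2 WT and 0.497 (10 reads) in MFN2 cKO P spermatocytes, and at 2.89 (60 reads) and 7.60 (154 reads) in L/Z spermatocytes. At PD 24, MFN2 cKO was at least 3.07-fold lower (exact lower limit 2.07) in P and at least 3.76-fold lower (2.61) in L/Z spermatocytes. At PD 52 the ratio of MFN2 cKO to MFN2 WT was 2.63 (1.94 to 3.60) in L/Z spermatocytes and 0.481 (0.204 to 1.05) in P spermatocytes, where the interval includes no difference. L/Z MFN2 cKO at PD 52 was therefore the highest library for Klk1b26, and P MFN2 cKO at PD 52 for the other 5 genes.

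**Figure D2:**
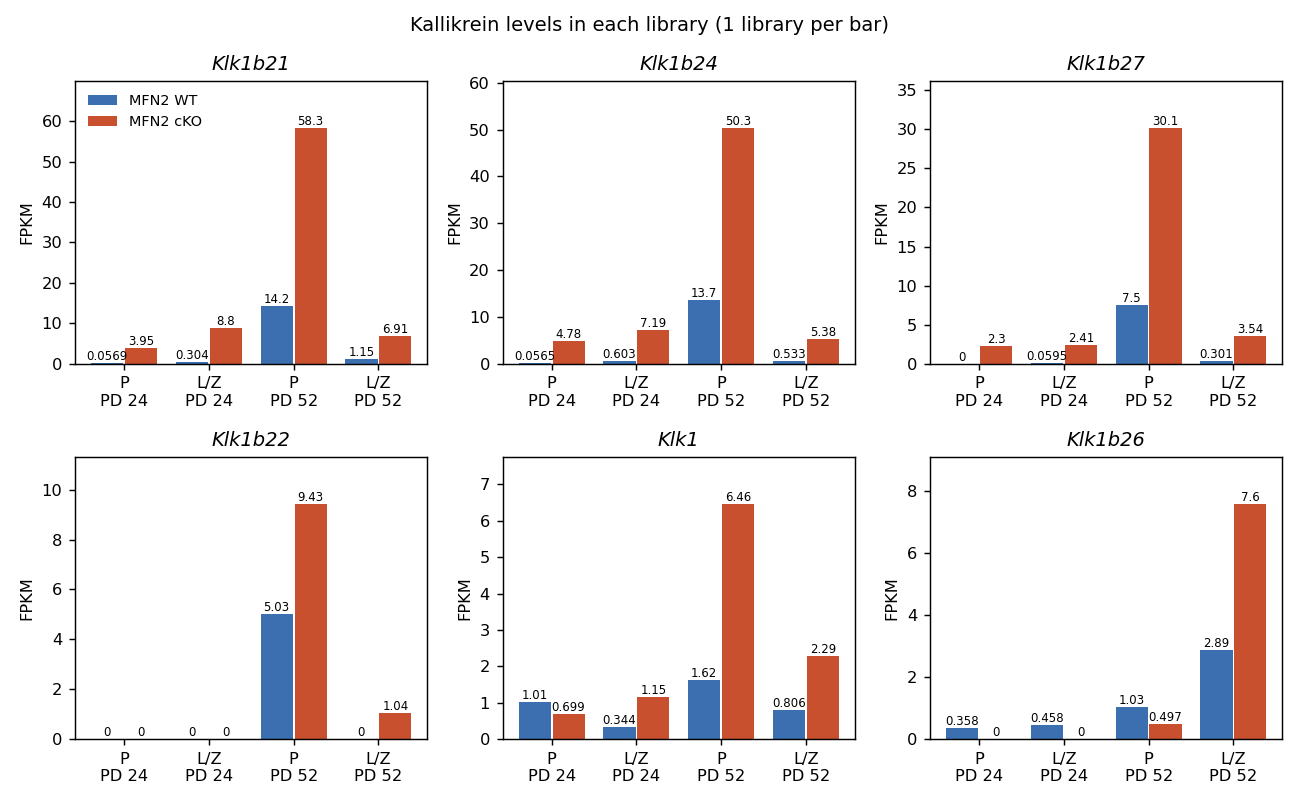
FPKM of each kallikrein in each library, with 1 panel per gene, pairs of stage and age on the horizontal axis, and 1 bar per library in blue (MFN2 WT) or red (MFN2 cKO). Klk1b21, Klk1b24 and Klk1b27 reach 58.3, 50.3 and 30.1 FPKM in P MFN2 cKO at PD 52, whereas Klk1b26 reaches 7.60 FPKM in L/Z MFN2 cKO at PD 52. Each panel has a scale of its own.

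Placed from high to low, neighbouring libraries were often not separated by counting error. For Klk1b21, P MFN2 cKO at PD 52, P MFN2 WT at PD 52 and the group of L/Z MFN2 cKO libraries at PD 24 and PD 52 followed each other, and the last 2 had a ratio of 1.27 (0.967 to 1.68). Of the 7 steps in that order, 2 had an interval including 1. The count was 3 of 7 for Klk1b24, 4 of 7 for Klk1b27, Klk1b22 and Klk1b26, and 6 of 7 for Klk1, where only the step from P MFN2 cKO to L/Z MFN2 cKO at PD 52 stood clear, at 2.83 (1.91 to 4.26).

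On the log2(FPKM + 1) scale, the mean difference of MFN2 cKO minus MFN2 WT over the 4 pairs was 2.24 ± 0.47 (SD) for Klk1b21, 2.17 ± 0.29 for Klk1b24 and 1.77 ± 0.08 for Klk1b27. Among 21175 genes above 1 FPKM in at least 1 library, these means ranked 8, 12 and 29 from the top. The means were 0.70 ± 0.72 for Klk1 (rank 466), 0.45 ± 0.53 for Klk1b22 (rank 1082) and -0.07 ± 0.81 for Klk1b26 (rank 11953). For these last 3 genes the SD between pairs was larger than the mean. By any amount, 3 of the 6 members were higher in all 4 pairs, which is the count the choice of genes fixed, where 7.74% of all genes were. At least 2-fold higher on this scale were 3 of 6 in P spermatocytes at PD 24 (1.79% of all genes above 1 FPKM in either library), 3 of 6 in L/Z at PD 24 (3.45%), 4 of 6 in P at PD 52 (5.21%) and 5 of 6 in L/Z at PD 52 (4.83%). Klk1b22 and Klk1b26 had FPKM above 1 in neither library of a pair at PD 24. These ranks and 2-fold counts come from the contrast by which the genes were chosen. The shares of all genes beside them therefore test nothing about the members.

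**Figure D3:**
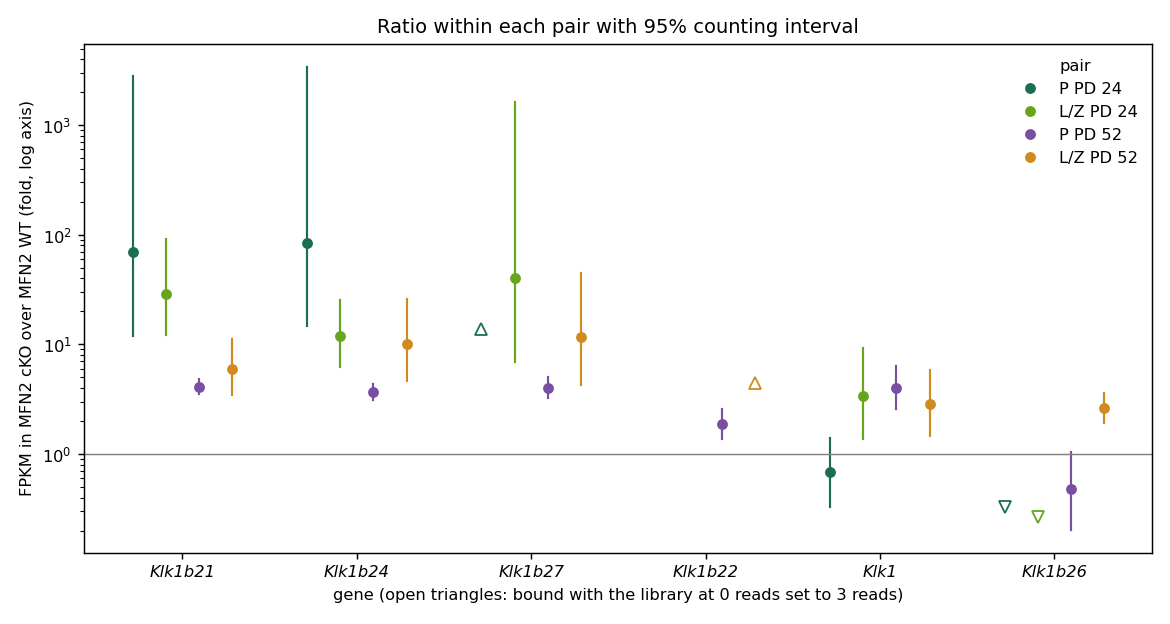
Ratio of FPKM in MFN2 cKO to MFN2 WT for each gene on a log axis, with 1 colour per pair, 95% counting intervals as lines, and open triangles for bounds where a library had 0 reads. Every point of Klk1b21, Klk1b24 and Klk1b27 lies above 1, with P spermatocytes at PD 52 between 3.67 and 4.09, and the points of Klk1b26 lie on both sides of 1.

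Stage and age were not used to choose the genes, so these contrasts were tested across all 21175 genes with limma on log2(FPKM + 1). For stage, P was compared with L/Z within 4 blocks of genotype and age. For age, PD 52 was compared with PD 24 within 4 blocks of genotype and stage. The Benjamini-Hochberg adjusted p had to be under 0.05. All 6 members passed the filter of 1 FPKM, Klk1b22 and Klk1b26 only through libraries of PD 52, where they are high.

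By stage, 0 of the 6 members were called, with 28.4% of all genes called, 12.4% higher in P and 16.0% lower. The median difference of P minus L/Z was 1.17 over the members and -0.04 over all genes. Unadjusted p was under 0.05 for 2 members, Klk1b22 and Klk1b27. Limma-voom on the recovered reads called 4, Klk1b22, Klk1b24, Klk1b26 and Klk1b27, with 7604 of 21175 genes called in all. The limma difference of P minus L/Z was 1.34 (SE 0.54, adjusted p 0.10) for Klk1b27, 1.29 (SE 0.70, adjusted p 0.20) for Klk1b24 and 1.11 (SE 0.67, adjusted p 0.25) for Klk1b21. These 3 genes were higher in P in 2 of the 4 blocks, both at PD 52, and lower in both blocks at PD 24. For Klk1b22 the difference was 1.24 (SE 0.48, adjusted p 0.096), and for Klk1 it was 0.49 (SE 0.25, adjusted p 0.17). Klk1b26 had a difference of -0.89 (SE 0.40, adjusted p 0.14), below 0 in 3 blocks and at 0 reads in the fourth.

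The block values show how far stage and age went together. At PD 52, Klk1b21 had a ratio of P to L/Z of 12.4 (7.33 to 22.5) in MFN2 WT and 8.43 (6.75 to 10.6) in MFN2 cKO. Klk1b24 had ratios of 25.7 (12.2 to 64.8) and 9.36 (7.29 to 12.2), and Klk1b27 had 25.0 (9.47 to 93.3) and 8.52 (6.26 to 11.8). At PD 24 the same ratios in MFN2 cKO were 0.449 (0.328 to 0.608) for Klk1b21, 0.664 (0.491 to 0.895) for Klk1b24 and 0.954 (0.592 to 1.54) for Klk1b27. In MFN2 cKO the P library was thus several times the L/Z library at PD 52 and not above it at PD 24 for these 3 genes. For Klk1b22 at PD 52, P was at least 21.5-fold higher (exact lower limit 17.0) than L/Z in MFN2 WT, and the ratio was 9.06 (5.10 to 17.5) in MFN2 cKO. Klk1b26 ran the other way, with L/Z over P at 2.80 (1.70 to 4.74) in MFN2 WT and 15.3 (8.09 to 32.5) in MFN2 cKO at PD 52. Whether the stage difference itself differed between ages was not tested.

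By age, 0 of the 6 members were called as well, with 17.3% of all genes called, 11.9% higher at PD 52 and 5.41% lower. Unadjusted p was under 0.05 for 5 members, all but Klk1b24. Limma-voom called 3, Klk1b22, Klk1b26 and Klk1b27, with 4385 of 21175 genes called in all. The differences of PD 52 minus PD 24 were all above 0, with a median of 1.69, against 0.0048 over all genes. They were 1.96 (SE 0.73, adjusted p 0.11) for Klk1b21, 1.76 (SE 0.58, adjusted p 0.083) for Klk1b27, 1.75 (SE 0.55, adjusted p 0.074) for Klk1b22 and 1.63 (SE 0.76, adjusted p 0.17) for Klk1b24. For Klk1b26 the difference was 1.42 (SE 0.44, adjusted p 0.071) and for Klk1 0.89 (SE 0.32, adjusted p 0.10). Klk1, Klk1b26 and Klk1b27 were higher at PD 52 in 4 of 4 blocks, Klk1b21 and Klk1b22 in 3, and Klk1b24 in 2.

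For the Leydig cell kallikreins, P spermatocytes had the large ratios between ages. In P MFN2 cKO the ratio of PD 52 to PD 24 was 14.8 (11.4 to 19.4) for Klk1b21, 10.5 (8.32 to 13.5) for Klk1b24 and 13.1 (9.39 to 18.8) for Klk1b27. In L/Z MFN2 cKO it was 0.785 (0.594 to 1.03), 0.748 (0.546 to 1.02) and 1.47 (0.935 to 2.32) in the same order, all with intervals including 1. In L/Z MFN2 WT, from few reads, it was 3.79 (1.31 to 13.3) for Klk1b21 and 0.884 (0.285 to 2.57) for Klk1b24. In P MFN2 WT, from 1 read of Klk1b21 and 1 of Klk1b24 at PD 24, the ratios were 250.2 (44.4 to 9933) and 243 (43.0 to 9635), and Klk1b27 was at least 44.8-fold higher (exact lower limit 35.8) at PD 52. Klk1 had a ratio of 9.25 (5.26 to 17.5) in P MFN2 cKO and 1.99 (1.14 to 3.54) in L/Z MFN2 cKO. For Klk1b26 it was 2.89 (1.32 to 6.81) in P MFN2 WT and 6.31 (3.36 to 12.9) in L/Z MFN2 WT, while PD 52 was at least 4.27-fold higher (exact lower limit 2.87) in P MFN2 cKO and at least 62.3-fold higher (50.1) in L/Z MFN2 cKO. The stages were not tested against each other in their response to age.

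Leydig cell genes were also mostly higher in MFN2 cKO. Insl3, a hormone of Leydig cells, was at 5.17 FPKM in MFN2 WT and 39.4 in MFN2 cKO in P spermatocytes at PD 24, at 8.16 and 71.4 in L/Z at PD 24, at 166 and 273 in P at PD 52, and at 16.9 and 37.8 in L/Z at PD 52. Cyp17a1, an enzyme of androgen synthesis, was at 1.88 and 22.4, 3.71 and 29.4, 43.5 and 204, and 4.47 and 28.0 FPKM in the same order. Of the 12 Leydig cell genes, 10, 12, 11 and 12 were higher in MFN2 cKO by any amount in these 4 pairs. The median log2(FPKM + 1) difference over all genes above 1 FPKM in either library lay between -0.095 and 0.077 in these pairs. The summed FPKM of the list was 3.88-fold higher in MFN2 cKO in P at PD 24, 4.48-fold in L/Z at PD 24, 2.41-fold in P at PD 52 and 2.99-fold in L/Z at PD 52. Stage and age did not order all of these genes as they ordered the 3 kallikreins. By limma 2 of the 11 Leydig genes tested were called by stage (28.4% of all genes). They were Hsd17b3 and Nr5a1, both higher in P. By age 0 were called (17.3% of all genes), with 3 at an unadjusted p under 0.05. Limma-voom called 1 by age, with 4385 of 21175 genes called in all. The age difference was 1.81 for Cyp17a1 but -0.96 for Nr5a1, -0.81 for Hsd3b1 and -0.41 for Lhcgr. The highest library was L/Z MFN2 cKO at PD 24 for Hsd3b1 (38.4 FPKM), P MFN2 cKO at PD 24 for Nr5a1 (11.4) and P MFN2 WT at PD 52 for Fdx1 (20.4). The part of Leydig cells in the kallikrein values was not tested.

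The ratio between genotypes was larger for the summed kallikreins than for the summed Leydig list in each pair, a difference that has no test here. Single Leydig genes could differ more: in P spermatocytes at PD 52 the ratio of Cyp17a1, from the values above, was larger than those of Klk1b21, Klk1b24 and Klk1b27. The summed FPKM of Klk1b21, Klk1b24 and Klk1b27 was 0.113 in MFN2 WT and 11.0 in MFN2 cKO in P spermatocytes at PD 24, and 0.966 and 18.4 in L/Z spermatocytes. At PD 52 it was 35.4 and 139 in P, and 1.98 and 15.8 in L/Z spermatocytes. As a percentage of the summed Leydig list, it was 0.263% and 6.60% in P at PD 24, 1.86% and 7.90% in L/Z at PD 24, 12.2% and 19.9% in P at PD 52, and 5.06% and 13.5% in L/Z at PD 52. This percentage was thus higher in MFN2 cKO in each pair, by 25.1-fold, 4.25-fold, 1.63-fold and 2.66-fold, the first from 2 reads of the 3 genes in MFN2 WT. It was also higher at PD 52 than at PD 24 in each stage and genotype, by 46.5-fold in P MFN2 WT, again from those 2 reads, 3.02-fold in P MFN2 cKO, 2.73-fold in L/Z MFN2 WT and 1.71-fold in L/Z MFN2 cKO. In L/Z spermatocytes the Leydig list itself was lower at PD 52, at 0.753 of its PD 24 sum in MFN2 WT and 0.503 in MFN2 cKO.

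Other somatic markers had other patterns. The summed FPKM of 10 macrophage genes was higher in MFN2 cKO in each pair, from 23.0 to 49.6 in P and from 41.4 to 129.6 in L/Z at PD 24, and from 9.62 to 23.2 in P and from 22.3 to 176 in L/Z at PD 52. It was highest in L/Z MFN2 cKO at PD 52, whereas the 3 kallikreins were highest in P MFN2 cKO at PD 52. The sum of 10 Sertoli cell genes was higher in MFN2 cKO in P at PD 24 (469 and 614) and L/Z at PD 52 (21.6 and 64.2), and lower in L/Z at PD 24 (182 and 147) and P at PD 52 (598 and 198). Peritubular myoid genes summed to between 37.8 and 208 FPKM and endothelial genes to between 2.70 and 6.01. No gene of these lists was at 0 in any library. Their part in the kallikrein values was not tested.

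For Klk1b26, spermatid genes were set beside it after its values had been seen. Their summed FPKM was 14.4-fold lower in MFN2 cKO in P and 7.73-fold lower in L/Z spermatocytes at PD 24, and 2.35-fold lower in P at PD 52, the 3 pairs in which Klk1b26 had fewer reads in MFN2 cKO. It was 1.90-fold higher in L/Z at PD 52, where Klk1b26 was higher. L/Z MFN2 cKO at PD 52 had the highest sum (18132) and the highest Klk1b26, and both MFN2 cKO libraries at PD 24, with the lowest sums (74.4 and 273), had 0 reads of Klk1b26. The spermatid sum was also higher in L/Z than in P throughout. At PD 24 it was 2113 in L/Z and 1072 in P in MFN2 WT, and 273 and 74.4 in MFN2 cKO. At PD 52 it was 9531 and 4312 in MFN2 WT, and 18132 and 1831 in MFN2 cKO. The part of spermatids in these values was not tested.

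**Figure D4:**
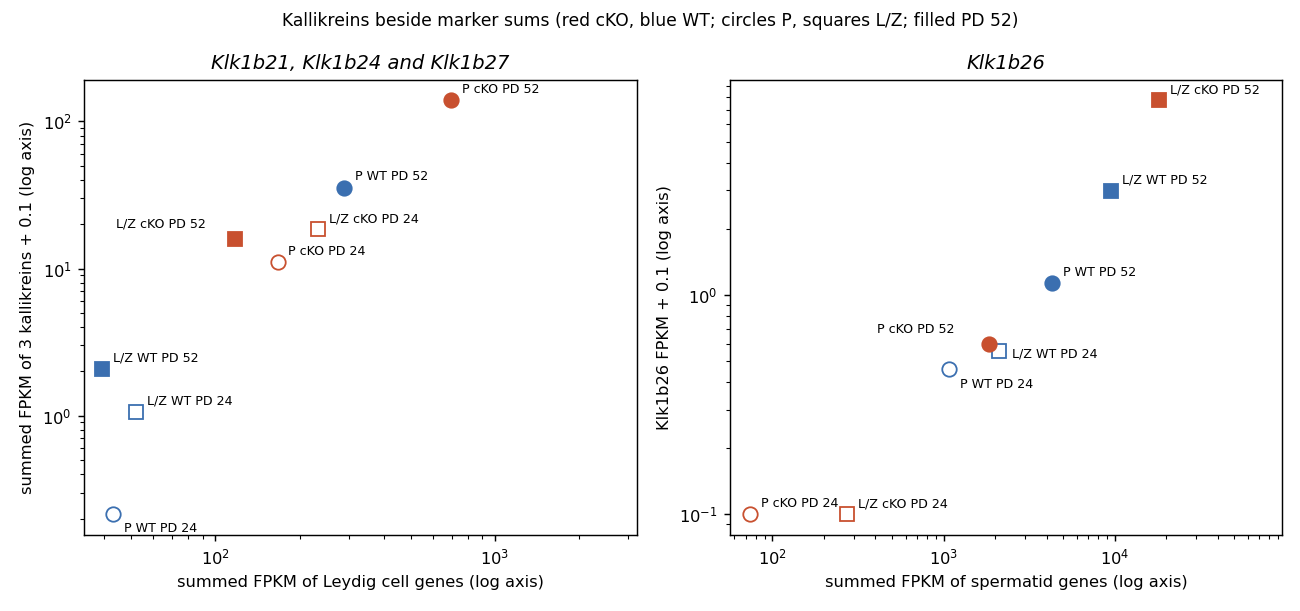
Left, summed FPKM of Klk1b21, Klk1b24 and Klk1b27 against that of 12 Leydig cell genes, and right, Klk1b26 FPKM against the summed FPKM of 8 spermatid genes, for 8 libraries on log axes with 0.1 added to the kallikrein values. P MFN2 cKO at PD 52 is at the upper right on the left (696 and 139), and L/Z MFN2 cKO at PD 52 is at the upper right on the right (18132 and 7.60).

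In the libraries with the most reads, the 3 Leydig cell kallikreins had similar proportions. The ratio of Klk1b21 to Klk1b24 in FPKM was 1.04 (0.848 to 1.27) in P MFN2 WT and 1.16 (1.04 to 1.29) in P MFN2 cKO at PD 52, 0.827 (0.585 to 1.17) in P MFN2 cKO and 1.22 (0.946 to 1.59) in L/Z MFN2 cKO at PD 24. Klk1b27 stood at 0.527 (0.413 to 0.670) of Klk1b21 in P MFN2 WT, 0.517 (0.456 to 0.586) in P MFN2 cKO and 0.512 (0.350 to 0.740) in L/Z MFN2 cKO at PD 52. Its proportion was lower in L/Z MFN2 cKO at PD 24, at 0.274 (0.186 to 0.395). In L/Z MFN2 WT, where reads were few, Klk1b21 over Klk1b24 came to 0.504 (0.135 to 1.62) for the earlier age and 2.16 (0.829 to 6.26) for the later one, and Klk1b27 over Klk1b21 came to 0.196 (0.00414 to 1.75) and 0.261 (0.0631 to 0.820). These 3 genes made up 94.0% of the summed FPKM of the 6 members in P MFN2 cKO and 94.1% in L/Z MFN2 cKO at PD 24, but 7.64% in P MFN2 WT at PD 24, where 34 reads in all fell on the 6 genes. In L/Z MFN2 WT at PD 24 the share of the 3 genes was 54.6%. At PD 52 it was 82.2% in MFN2 WT and 89.4% in MFN2 cKO in P, and 34.9% and 59.2% in L/Z. Klk1b26 took 50.9% of the sum in L/Z MFN2 WT at PD 52 and 0.320% in P MFN2 cKO at PD 52.

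Over the 8 libraries, log2(FPKM + 1) of Klk1b21 and Klk1b24 had a Pearson correlation of 0.991, Klk1b21 and Klk1b27 of 0.982, and Klk1b24 and Klk1b27 of 0.985. Klk1b22 correlated with Klk1b27 at 0.903 and Klk1 with Klk1b27 at 0.886. Klk1b26 had correlations between -0.08 and 0.18 with the other members. These values describe 8 libraries that share stage, age and genotype in pairs, and P MFN2 cKO at PD 52 weighs heavily in them.

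The genes most like the mean profile of the 6 members, among 11492 genes above 5 FPKM in at least 1 library with all kallikreins left out, were Bhmt (0.985), Ces1d (0.978), Lrg1 (0.970), 9230104L09Rik (0.958) and Cyp17a1 (0.956). Bpifb5 (0.950), Gm13414 (0.948), Sult1e1 (0.945), Agt (0.943) and Hsd17b3 (0.941) came next. Bhmt encodes a methyltransferase of methionine metabolism, Sult1e1 the estrogen sulfotransferase, Agt angiotensinogen and Hsd17b3 the enzyme that makes testosterone from androstenedione. All 10 were highest in P MFN2 cKO at PD 52. Bhmt ran from 0.0258 to 7.44 FPKM, Agt from 0.970 to 82.7 and Hsd17b3 from 0.457 to 25.6. Taken gene by gene, a choice made after the values were seen, and with kallikreins left out as above, Cyp17a1 was the closest gene to Klk1b21 (0.990) and Klk1b24 (0.994), Bhmt to Klk1b27 (0.989), Lcn2 to Klk1b22 (0.963) and Gtdc1 to Klk1 (0.937). For Klk1b26 the closest were Gm16079 (0.989), Dcun1d3 (0.986) and Abhd5 (0.985), all highest in L/Z MFN2 cKO at PD 52.

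Of the 16 other Klk1 group genes in the table, 7 were above 1 FPKM in at least 1 library, and 2 were at 0 in all 8. Klk1b8 was the highest of them. Its FPKM at PD 24 was 1.67 in MFN2 WT and 0 in MFN2 cKO in P, and 3.82 and 0.0656 in L/Z spermatocytes. Its PD 52 levels were 9.80 and 5.53 in P, and 17.1 and 36.1 in L/Z spermatocytes. Klk1b9 ran in the same order of libraries at PD 52, at 3.30 and 0.950 in P and 5.61 and 14.0 in L/Z, and was at 0.426 or less at PD 24. Klk1b7-ps, a pseudogene, was at 1.36 and 0 in P and 3.68 and 0.0817 in L/Z at PD 24, and at 2.17 and 1.70 in P and 5.23 and 8.92 in L/Z at PD 52. These genes thus varied as Klk1b26 did, with correlations to Klk1b26 of 0.919 for Klk1b8, 0.968 for Klk1b9 and 0.885 for Klk1b7-ps. Klk1b26 shares 130 of its 50-base windows with Klk1b8, the gene with which it shares most. Klk1b3 (3.39), Klk1b5 (2.41) and Klk1b4 (1.30) also had their highest FPKM in L/Z MFN2 cKO at PD 52, and Klk1b16 had 2.09 in P MFN2 cKO and 1.97 in L/Z MFN2 cKO at PD 52.

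By limma, 1 of these 7 genes changed with stage, where 28.4% of all genes were called, and 3 with age, where 17.3% were. Klk1b7-ps was lower in P by 0.99 on the log2 scale (difference -0.99, SE 0.27, adjusted p 0.032). Klk1b8 (2.94, SE 0.53, adjusted p 0.020), Klk1b9 (2.28, SE 0.44, adjusted p 0.024) and Klk1b16 (0.96, SE 0.22, adjusted p 0.033) were higher at PD 52, in 4 of 4 blocks each. Klk1b9 and Klk1b16 were above 1 FPKM in PD 52 libraries only, so they entered the test through the libraries where they are high. These calls also depended on the blocks, since leaving out a block left limma with 0 calls over all genes in 2 of 4 cases by stage and 3 of 4 by age. The 12 other kallikrein-related peptidases, Klk4 to Klk15, were all below 1 FPKM in every library, and 5 of them were at 0 in all.

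**Figure D5:**
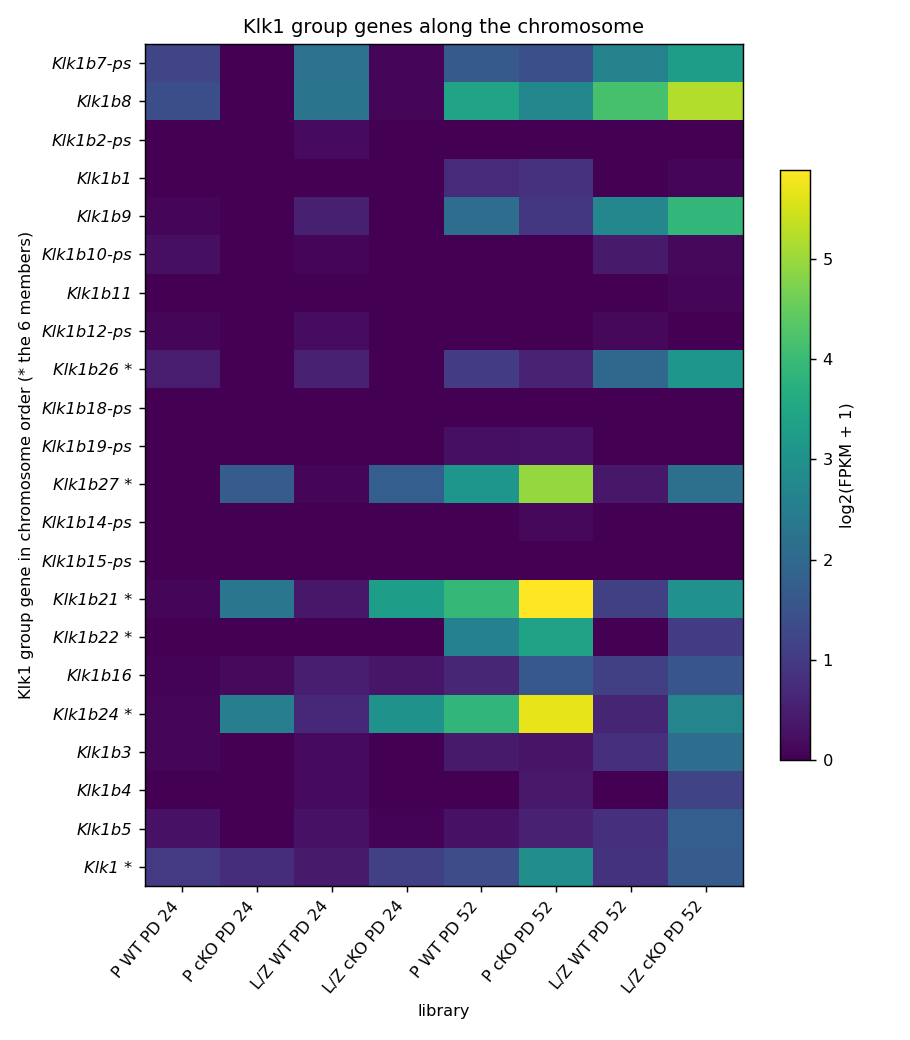
log2(FPKM + 1) of 22 Klk1 group genes in their order along the chromosome (rows, members marked with an asterisk) in 8 libraries (columns). Klk1b21 and Klk1b24 are brightest in P MFN2 cKO at PD 52 (58.3 and 50.3 FPKM), and Klk1b8 in L/Z MFN2 cKO at PD 52 (36.1 FPKM).

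The kinin system around Klk1 was largely at low levels. Of 22 genes listed, 10 were above 1 FPKM in at least 1 library. The kininogens Kng1 and Kng2 reached at most 0.212 and 0.611 FPKM, and plasma kallikrein, Klkb1, 0.482. Of the bradykinin receptors, Bdkrb1 reached 0.691 and Bdkrb2 ranged from 0.327 to 1.14. Ace, which destroys kinins, ranged from 6.61 to 121 FPKM and was the highest of the list in 5 of 8 libraries. Serpina5 was above it in both P libraries at PD 24, and Serping1 in L/Z MFN2 cKO at PD 24. Cpn1 ranged from 3.42 to 6.91 FPKM, and Serpina3c and Serpina3n reached at most 3.14 and 3.71. Serping1, an inhibitor of plasma kallikrein, was higher in MFN2 cKO in each pair: 2.17 and 4.99 in P at PD 24, 23.9 and 49.8 in L/Z at PD 24, 1.85 and 6.25 in P at PD 52, and 8.71 and 41.5 in L/Z at PD 52. With 1 added to each FPKM, genes of the list at least 2-fold higher in MFN2 cKO numbered 2 of the 8 that passed the filter in P at PD 24 (1.79% of all genes) and 2 of 9 in L/Z at PD 24 (3.45%). At PD 52 they numbered 2 of 7 in P (5.21%) and 4 of 9 in L/Z (4.83%). The only gene of the list at least 2-fold lower was Ace in P at PD 24, with a difference of -1.24.

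By stage, 1 of the 10 genes was higher in P and 3 were lower, with a median difference of -0.02 (28.4% of all genes were called). Serpina5, a serine protease inhibitor, was higher by 1.98 (SE 0.37, adjusted p 0.0093), while Serping1 fell by 2.59 on the log2 scale (SE 0.23, adjusted p 0.0021), Ace by 1.48 (difference -1.48, SE 0.20, adjusted p 0.0040) and A2m by 0.60 (difference -0.60, SE 0.15, adjusted p 0.027). By age (17.3% of all genes called), Ace rose by 1.70 (SE 0.25, adjusted p 0.015) toward PD 52, and 2 genes were lower, Mme, another kinin-cutting peptidase, at -0.75 (SE 0.17, adjusted p 0.035) and Igfbp3, a binding protein of insulin-like growth factors, at -1.24 (SE 0.29, adjusted p 0.036). The median was again -0.02. A2m was above 1 FPKM in L/Z libraries only, so it entered the test by stage through the libraries where it is high. The calls by stage and by age depended on the blocks used. By stage, none of the 10 genes was called without the MFN2 WT libraries at PD 24 or without the MFN2 cKO libraries at PD 52, when limma called 0 of all genes. By age, none was called without the L/Z MFN2 WT, the L/Z MFN2 cKO or the P MFN2 cKO libraries, when limma likewise called 0 of all genes.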

How the data were processed

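The 6 kallikreins, the marker lists and the comparisons were chosen with earlier results of these data known. The authors counted paired-end reads, computed FPKM with Novomagic, state DESeq2 as their own test, and deposited FPKM for 54532 genes. Of these, 14898 had no read in any of 8 libraries. The submitters' processing notes name CASAVA 1.4, Bowtie 0.12.2 and the builds mm8 and mm9 without their roles, but the coordinates of the 6 genes equal those of GENCODE release M21 on GRCm38. Strand setting and counter are not given in the sources used here. FPKM times gene length fell on whole multiples of a step in each library (100% of values within 0.01), which gave the reads.

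Genotypes were compared within pairs as ratios of FPKM with exact binomial (Clopper-Pearson) intervals from the reads, or as log2(FPKM + 1). As the reads carry no molecular identifiers, PCR copies count more than once, and intervals cover counting error only. Stage and age were tested with limma 3.58.1 (R 4.3.3; lmFit, eBayes with trend) on log2(FPKM + 1) over 21175 genes above 1 FPKM in at least 1 library, with Benjamini-Hochberg adjustment. The 4 blocks stand in for replicates, as each group had 1 library and nothing says which libraries came from separate animals.

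Genes named were the members, other kallikreins and kinin system genes above 1 FPKM in at least 1 library, Leydig cell genes, and the 10 genes most like the members' mean profile; low kinin system genes were named after their values were seen. Of 20 other Klk1 group genes listed, 4 are not analysed here. Transcripts were GENCODE M21, aligned end to end with Biopython 1.88, and promoters were RefSeq's on GRCm38.p6, matched by symbol for all 14 coding genes of the group. The limma test was tested on simulated reads by stage among 21175 genes. It called 13 of 68 genes changed by a log2 of 1, 64 of 66 changed by 2, 66 of 66 changed by 3 and 6 of 20975 unchanged genes.

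Tried as alternatives were limma-voom on reads, no block, no filter on FPKM, a pseudocount of 0.1, another median-of-ratios scaling, and each block or pair left out. Median-of-ratios over genes above 1 FPKM and the likeness of single members were added after the data were seen.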

Additional observations from a re-analysis of the deposited data

Results flagged for a closer look

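The following results were picked out because a difference ran in opposite directions at PD 24 and PD 52, with the counting intervals of both ratios on opposite sides of no difference. Klk1b21 in MFN2 cKO differed between P and L/Z by -0.99 on the log2(FPKM + 1) scale at PD 24 and by 2.91 at PD 52. Klk1b24 differed between P and L/Z by -0.60 at PD 24 and 3.26 at PD 52 in MFN2 WT, where the P library had 1 read at PD 24, and by -0.50 and 3.01 in MFN2 cKO. Klk1b26 differed between MFN2 cKO and MFN2 WT in L/Z spermatocytes by -0.54 at PD 24 and by 1.14 at PD 52. With 1 library per group, none of these differences between ages was tested. In the same MFN2 cKO libraries the summed Leydig cell genes were at 167 FPKM in P and 233 in L/Z at PD 24, and at 696 and 117 at PD 52, so that they had the same order as Klk1b21 and Klk1b24 at each age. The part of Leydig cells in this order was not tested.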

How the results depend on the processing

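Of 56 alternative values for the counts by stage, age and genotype, 45 were within 1.5 times the reported count. The counts of members at least 2-fold higher in MFN2 cKO stayed within that range in all 4 pairs. With limma-voom on the reads, 4 members were called by stage and 3 by age in place of 0. The same fits called 7604 of 21175 genes by stage and 4385 by age. For Klk1b22, for example, the adjusted p over the alternatives ran from 0.0099 to 0.37 by stage and from 0.017 to 0.25 by age. For the kinin system, the 4 calls by stage became 1 with no block and 2 with no FPKM filter, and the 3 calls by age became 0 with no block and 1 with no filter. Leaving out each block in turn gave 0 to 4 calls by stage and 0 to 3 by age. Over all genes, it gave 0 to 5000 calls by stage and 0 to 3937 by age, with none in 2 of 4 and in 3 of 4 cases, so that these cases say nothing about single genes. Of 120 values for single members, 113 kept their side of the threshold and direction, and 7 came to pass it, all with limma-voom. The cause was not tested. Leaving out each pair in turn moved the mean genotype difference within 2.02 to 2.37 for Klk1b21, 2.07 to 2.29 for Klk1b24, 1.74 to 1.80 for Klk1b27, 0.43 to 1.02 for Klk1, 0.26 to 0.61 for Klk1b22 and -0.48 to 0.09 for Klk1b26. The direction for Klk1b26 therefore rests on single pairs. The further median-of-ratios scaling gave the same factor for every library and changed no count of members. Its values among the alternatives counted above are therefore hardly a separate check. Depth limits the ratios at PD 24, where MFN2 WT had at most 10 reads of Klk1b21, Klk1b24 or Klk1b27.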
